A study of Mus musculus and synthetic construct with 33 samples.

Results

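The first exon of Trp53cor1 and the DNA upstream of it were represented in a massively parallel reporter assay by 16 of the 445 tiles that cover the linc-p21 locus. The 16 are every tile whose mm10 start on chromosome 17 is 29078802 or more, a rule that uses position and no measured value. They carried 80 of the 2225 tags of the locus. The series as a whole compared wild-type and mutant mouse organs in 27 libraries and, in the 6 libraries used here, the tags in reporter RNA with the tags in the vector pool. One group was 3 libraries of GFP reporter RNA made in C2C12, a line of mouse myoblasts, and the other was 3 libraries of the vector DNA itself. The labels give no time, dose or transfection detail, and nothing in them says that the RNA libraries came from separate cultures. P-values therefore measure the spread between these libraries, which may be technical. A single cell line was used, and its identity cannot be checked from tag shares.

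Trp53cor1, also called linc-p21, is a long noncoding RNA gene transcribed away from Cdkn1a, its neighbour on chromosome 17, which encodes the cell cycle inhibitor p21. It is known as a gene that the tumour suppressor p53 can activate. In a reporter assay of this kind, each short piece of DNA is joined to a reporter gene together with tags that identify it, so a tag's share of the RNA, set against its share of the vector pool, is the readout for that piece. A promoter is the DNA at and just upstream of a gene's start where transcription begins.

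The tiles were 90 bases long, lay 49 bases apart, and so shared 41 bases with each neighbour. Each had 5 tags of 10 bases. All were deposited as minus-strand sequence, the strand from which Trp53cor1 reads. In the annotation the authors deposited, exon 1 is 71 bases (chr17:29078891-29078961) and the gene starts at its upper end. By that annotation 4 tiles touched exon 1, the first by only 1 base, and the other 12 lay wholly upstream. RefSeq (GRCm38.p6, the assembly of mm10) ends the gene 165 bases further out, at 29079126. By RefSeq the tile at 29078998 to 29079087 lies wholly within the gene, and the tiles at 29079047 and 29079096 have 80 and 31 bases in that stretch. Which of these tiles are promoter and which are transcribed thus depends on the annotation. The outermost tile ended 11353 bases short of the start of Cdkn1a.

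The results turn on a pair of overlapping tiles at and just outside the outer end of the annotated exon and on the next tile outward, which shares bases with the second and had no excess. They are shown 5′ to 3′, with capitals for the 41 bases (chr17:29078998-29079038) that the first and second both carry.
chr17:29078949-29079038: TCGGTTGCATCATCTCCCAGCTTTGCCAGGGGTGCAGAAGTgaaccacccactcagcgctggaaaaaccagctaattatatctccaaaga
chr17:29078998-29079087: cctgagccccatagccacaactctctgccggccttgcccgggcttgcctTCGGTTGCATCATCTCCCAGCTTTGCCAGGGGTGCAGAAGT
chr17:29079047-29079136: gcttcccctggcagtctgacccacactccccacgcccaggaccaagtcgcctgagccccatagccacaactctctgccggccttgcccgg

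The tile over the annotated start that lies mostly inside exon 1 is shown next, with its 62 bases of exon 1 in capitals. It shares 41 bases with the first of the tiles above.
chr17:29078900-29078989: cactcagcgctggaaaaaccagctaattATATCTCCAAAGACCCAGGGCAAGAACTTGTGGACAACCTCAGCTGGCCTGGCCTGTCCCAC

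The third tile with a clear excess lay further out, and capitals mark the 8 bases that neither neighbour carries.
chr17:29079096-29079185: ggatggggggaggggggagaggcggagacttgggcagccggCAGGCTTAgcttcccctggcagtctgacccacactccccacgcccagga

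The 3 tiles with the lowest fitted ratios among those called are shown for comparison, with no bases marked.
chr17:29079292-29079381: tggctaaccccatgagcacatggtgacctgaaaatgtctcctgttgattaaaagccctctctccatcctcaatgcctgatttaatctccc
chr17:29079488-29079577: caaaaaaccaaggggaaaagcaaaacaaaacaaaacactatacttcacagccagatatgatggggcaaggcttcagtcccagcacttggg
chr17:29079194-29079283: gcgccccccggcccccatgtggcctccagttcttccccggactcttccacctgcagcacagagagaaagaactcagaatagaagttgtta

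Values are given in ppm, the tag reads of a tile in every 1000000 tag reads of a library, summed over the tags of a tile, and as the log2 of RNA over vector fitted by limma on the share plus a pseudocount of 10 ppm. The pseudocount pulls the ratio of a scarce tile or tag towards 0. A call is an adjusted p under 0.05 over all 431 tiles tested in the locus, and all 16 tiles were among them. Tags of this locus accounted for 20.1% to 20.6% of RNA tag reads and for 17.8% of vector tag reads. The number of reads per library is unknown, so no counting error is given. The lowest value above 0 was 5.59 to 9.69 ppm by library, and nothing is listed between that and 0. Why a tag is listed at 0 is not stated.

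The tags of 4 tiles were commoner in RNA than in vector, those of 7 were scarcer, and 5 tiles were not called. Over the whole locus limma called 9.74% of tiles higher and 59.9% lower. The median of the 16 fitted log2 ratios was -0.22, and that of all tested tiles was -0.33. Groups did not overlap in 4 tiles with all RNA libraries above all vector libraries, and in 8 with all below, against 10.9% and 66.1% of all tested tiles. Scaling decides the lower calls. Centring each library on its median tile moved the tested tiles of the locus by 0.26, and the 16 tiles then gave 5 higher and 0 lower calls, against 13.7% and 14.2% of all tiles. Leaving out any 1 of the 3 vector libraries left 4 lower calls in place of 7.

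The tile at 29078998 to 29079087, 37 to 126 bases upstream of the annotated start, had the largest excess of the 16. Its tags made up 3279, 3707 and 2814 ppm in the RNA libraries and 514, 516 and 493 ppm in the vector libraries. The groups were far apart, with means of 3267 ± 447 (SD, n = 3) and 508 ± 13.2 (SD, n = 3). The fitted excess was 6.29-fold, a log2 of 2.65 (SE 0.09, limma adjusted p = 1.22e-07), and it ranked 5 among the 431 tiles. This tile held 12.8% of the vector tags of the 16 tiles and 45.5% of their RNA tags.

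Every tag of that tile showed the excess. ACGATTACAT went from a mean of 186 ppm in vector to 1108 in RNA, 5.97-fold. CTATCGTAAC went from 112 to 781 ppm, 6.96-fold, and ACGATTACAC from 66.3 to 523 ppm, 7.89-fold. TTATGTCGCC, the scarcest in vector at 38.2 ppm, had the highest ratio at 9.60-fold, and TAGTGTCTCG, at 106 ppm, the lowest at 4.63-fold. In the fit per tag, adjusted over 1581 tested tags of the locus, all 5 were called, with log2 ratios of 2.10 to 2.95. The SD between these tags was 0.32 on the log2 scale, and its median over the 342 tiles with at least 3 tested tags was 0.26.

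The tile nearer the gene, at 29078949 to 29079038, was also higher, and its tags fell into separate levels. Summed, they made up 848, 1109 and 747 ppm in RNA and 234, 238 and 231 ppm in vector, again without overlap. The fitted excess was 3.68-fold (log2 1.88, SE 0.13, limma adjusted p = 9.47e-06), rank 7 of 431. This is the only one of the 4 tiles touching exon 1 that was called higher, with 13 bases of exon 1 and 77 bases upstream.

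A pair of its tags carried the excess. ATAACGACGC stood at 466, 601 and 442 ppm in RNA against 102, 106 and 94.3 in vector, 4.99-fold on the means. ACTAAGCGTC stood at 347, 463 and 287 ppm against 97.7, 99.7 and 98.1, 3.71-fold. CATCGGAGAC did not follow them, at 26.3, 45.5 and 18.2 ppm in RNA against 26.3, 23.4 and 29.5 in vector, so its groups overlapped. CCAATCATGG, the scarcest, was at 8.54 ppm in 1 RNA library and listed at 0 in the other 2, with 8.24 to 9.18 ppm in vector, and AGCAGTCGTC was listed at 0 throughout. The fitted log2 ratios of the 4 tested tags were 2.20, 1.77, 0.08 and -0.60, with an SD of 1.34 between tags. Where the tile was valued by the median of its 5 tags in place of their sum, its log2 was 0.08 (limma adjusted p = 0.971). That median takes in tags listed at 0, and here it was the value of CATCGGAGAC alone.

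Ratios of neighbouring tiles were compared within libraries, which does not depend on how libraries are scaled except through the pseudocount in scarce tiles. Across the locus 21.4% of 415 neighbouring pairs differed by limma, adjusted over all pairs, and 8 of the 15 pairs here did. Without any 1 of the vector libraries the count of pairs here was 5. The tiles at 29078900 and 29078949 both span the annotated start. From the first to the second, which lies further out, the log2 ratio stepped up by 2.28 (95% interval 1.89 to 2.66, adjusted p = 9.51e-05). It stepped up by a further 0.77 to the top tile (interval 0.56 to 0.99, adjusted p = 0.00103). It then changed by -2.96 to the tile at 29079047 (interval -3.30 to -2.62, adjusted p = 1.26e-05). These intervals measure the spread of summed tags between libraries, not the spread between tags. On the means, tested tags ran from 0.328- to 4.99-fold in the tile at 29078949 and from 4.63- to 9.60-fold in the top tile. The bases of the top tile divide into 41 shared with the nearer tile, 41 shared with the outer tile and 8 in neither (chr17:29079039-29079046). The outer 41 bases were also present in a tile that was not higher, and which bases carry the excess was not tested. These 3 differences were called with any 1 of the 6 libraries left out, with adjusted p-values of at most 0.0118.

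The tile at 29079047 to 29079136 stood at 237, 193 and 193 ppm in RNA and 260, 265 and 249 in vector. All RNA values were below all vector values, with a log2 ratio of -0.31 (interval -0.53 to -0.08, limma adjusted p = 0.0218). The ratio is close to that of the median tile of the locus, and the centred value was -0.04 (adjusted p = 0.776). Its 4 tested tags had log2 ratios of 0.05, -0.40, -0.39 and -0.32, and 1 of them was called. The call was lost without RNA replicate 3 or any 1 vector library, at adjusted p-values of 0.0519 to 0.0865.

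The tile at 29079096 to 29079185, which RefSeq's start splits, was higher again. It stood at 448, 303 and 365 ppm in RNA and 198, 211 and 201 in vector, with no overlap. The fitted excess was 1.77-fold (log2 0.82, SE 0.13, limma adjusted p = 0.00089), rank 19 of 431. The 3 tested tags gave close ratios. GCCACCGTTC was 1.79-fold, AACTCATGGG 1.83-fold and GGTCGCTAAC 2.02-fold higher on the means, and their log2 ratios were 0.77, 0.76 and 0.74. The first and second of these tags were called, and the third had an adjusted p of 0.0564. GCCACCGTTG and TGCCAGATCC were listed at 0 in all 6 libraries. With the median over tags as the tile's value the log2 was 0.74 and the limma adjusted p was 0.104. Because 2 of the 5 tags were listed at 0, that median was the value of GGTCGCTAAC alone. Both neighbours differed from this tile: the log2 ratio stepped up by 1.13 from 29079047 (interval 0.89 to 1.36, adjusted p = 0.00028) and changed by -0.82 towards 29079145 (interval -1.31 to -0.33, adjusted p = 0.0319). The second of these calls was lost without any 1 of the vector libraries (adjusted p = 0.0764 to 0.139). The tile at 29079145 was scarce, with means of 9.77 ppm in RNA and 9.83 ppm in vector.

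A smaller excess appeared 478 to 567 bases upstream, in the tile at 29079439 to 29079528. It stood at 640, 722 and 591 ppm in RNA and 540, 526 and 517 in vector, without overlap. The fitted ratio was 1.23-fold (log2 0.29, SE 0.07, limma adjusted p = 0.00799), rank 37 of 431, and 0.55 with libraries centred. All 5 tags lay on the same side, with log2 ratios of 0.38, 0.21, 0.28, 0.34 and 0.25, of which 2 were called. The SD between them was 0.07. It exceeded the tile on its inner side (29079390) by 0.60 (interval 0.23 to 0.98, adjusted p = 0.0365), and from it to the outer tile (29079488) the log2 ratio changed by -0.90 (interval -1.22 to -0.58, adjusted p = 0.00319). The first difference was called in 1 of the 6 fits without a library, the one without RNA replicate 3 (adjusted p = 0.00168), and reached 0.137 in the others, while the second was called in all 6.

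The other tiles that touch exon 1 had no excess. The tile at 29078900 to 29078989, with 62 bases of exon 1, stood at 274, 273 and 285 ppm in RNA and 388, 348 and 369 in vector. It was called lower (log2 -0.40, interval -0.55 to -0.24, limma adjusted p = 0.0012), and centred on library medians its value was -0.13 (adjusted p = 0.158). Its 4 tested tags had log2 ratios of -0.50, -0.49, -0.17 and -0.34. The tile at 29078851 to 29078940, with 50 bases of exon 1, stood at 659, 519 and 679 ppm in RNA and 733, 709 and 706 in vector. It was the tile with the most vector tags among the 16, and was not called (log2 -0.22, adjusted p = 0.0674), although all RNA values lay below all vector values. It was called lower in 5 of 16 alternative settings. These were the fit without the tag of largest ratio in each tile (log2 -0.38, adjusted p = 0.00681), without tags 1 mismatch from another listed tag (-0.43, 0.0103) and with a replicate block (-0.22, 0.0147). The other 2 left out RNA replicate 2 (-0.10, 0.0478) or 3 (-0.29, 0.0388). Its tested tags ran from -0.42 to 0.10, with the 2 lowest called.

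At the inner edge of the region, the tile at 29078802 to 29078891 was scarce in both groups, at 29.9, 36.8 and 42.9 ppm in RNA and 46.1, 43.3 and 43.0 in vector. Its log2 ratio was -0.23 (interval -0.60 to 0.15, adjusted p = 0.234). It holds a run of 15 T, the longest run of 1 base among the 16 tiles, and 3 of its 5 tags were listed at 0 in every library, while the others had log2 ratios of -0.43 and 0.07. The next tile inward, at 29078753 to 29078842 in the intron and outside the chosen region, had 341 ppm in RNA and 452 in vector on average, a log2 ratio of -0.41.

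None of the 6 tiles lying wholly between 184 and 518 bases upstream was called higher. The tile at 29079145 to 29079234 stood at 8.75, 9.90 and 10.7 ppm in RNA and 12.6, 8.13 and 8.79 in vector, so the groups overlapped. The tile's log2 ratio was 0.0009 (interval -0.43 to 0.43, adjusted p = 0.996). Only 1 of its tags could be tested (log2 -0.46, interval -1.19 to 0.28), and in RNA that tag was above 0 in replicate 3 only. An untested tag made up all of the tile in RNA replicates 1 and 2, and in vector was above 0 in replicate 1 only. The tile's ratio therefore sets different tags against each other, at values close to the pseudocount of 10 ppm. The tile at 29079194 to 29079283 stood at 167, 176 and 125 ppm in RNA and 224, 242 and 237 in vector, and was called lower (log2 -0.57, interval -0.87 to -0.27, limma adjusted p = 0.0057). Centred on library medians, the tile's value was -0.31 (limma adjusted p = 0.145). A single tag, AGCGCACGTT, made up 93.7% of its vector total, with a log2 ratio of -0.56, and the other tested tag, AGGGGCCGTC, had -0.45. On the means AGCGCACGTT had the slightly higher ratio (0.666 against 0.659). The setting that leaves out the tag of highest mean ratio thus removed nearly the whole tile, and its call was lost (log2 -0.45, adjusted p = 0.322).

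The tile at 29079243 to 29079332 varied widely between RNA libraries, at 39.1, 10.6 and 60.8 ppm against 36.9, 36.3 and 41.2 in vector. The groups overlapped, and the log2 ratio of -0.21 had an interval of -1.13 to 0.71. Its 2 tested tags had log2 ratios of -0.01 and -0.21. The tile at 29079292 to 29079381 had the lowest fitted ratio of the 16, with 49.3, 62.7 and 84.5 ppm in RNA and 102, 122 and 110 in vector. It was called lower (log2 -0.71, interval -1.13 to -0.29, limma adjusted p = 0.00993), and centred its value was -0.45 (adjusted p = 0.086). Its tag TGTTTGCAAC was listed at 0 in all RNA libraries and stood at 13.1, 17.9 and 11.9 ppm in vector. Its tag ACAGGAGTTG had a log2 ratio of -0.78, CCTCTGTAAC -0.49 and CCGTATGCGT 0.02.

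The tile at 29079341 to 29079430 stood at 233, 253 and 255 ppm in RNA and 253, 248 and 258 in vector, with overlapping groups. The log2 ratio was -0.04 (interval -0.20 to 0.13, limma adjusted p = 0.672), and with libraries centred it was 0.23 (adjusted p = 0.0434), so its direction rests on the scaling. Its tested tags had log2 ratios of -0.04, -0.38, -0.02 and 0.17, none called. The tile at 29079390 to 29079479 stood at 205, 214 and 264 ppm in RNA and 277, 278 and 293 in vector (log2 -0.31, interval -0.54 to -0.08, limma adjusted p = 0.0244). Its tested tags had log2 ratios of -0.41, 0.01, -0.15 and -0.63. Leaving out RNA replicate 1 or 2 or any vector library lost its call, with adjusted p-values of 0.0553 to 0.0942. Centring the libraries also lost it, at a value of -0.05 (limma adjusted p = 0.718).

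The outermost tiles were called lower in RNA, and neither call held with libraries centred. The centred log2 ratios were -0.35 at 29079488 (limma adjusted p = 0.176) and -0.30 at 29079537 (limma adjusted p = 0.344). The tile at 29079488 to 29079577 stood at 83.0, 75.6 and 54.0 ppm in RNA and 116, 113 and 107 in vector (log2 -0.61, interval -0.98 to -0.24, limma adjusted p = 0.0109). Its tag GACATACTTC had a log2 ratio of -0.75, AGACATCGTC -0.41 and GCCCAAATAT -0.29. The tile at 29079537 to 29079626 stood at 49.1, 25.4 and 31.5 ppm in RNA and 63.4, 56.4 and 47.7 in vector. In this tile 1 RNA value lay among the vector values, and the log2 ratio of -0.57 (interval -1.06 to -0.07) had a limma adjusted p of 0.0457. That call was lost in 10 of 16 alternative settings, among them leaving out any 1 vector library or RNA replicate 2 or 3. CTTCGGCCAC (-0.88) and TTATGCCTTG (-0.47), on the log2 scale, were its tested tags, each listed at 0 in 1 RNA library.

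Counted by tag, 53 of the 80 were above 0 in all 3 vector libraries and could be tested, and 24 were listed at 0 in all 6 libraries. Of the 53, limma called 11 higher and 9 lower, against 6.83% and 29.2% of all 1581 tested tags. The 11 were all 5 tags of the top tile and 2 in each of the other 3 tiles called higher. With libraries centred 13 were higher and 1 was lower. The lower count also moved with single libraries, to 2 without any 1 of the vector libraries and to 15 without RNA replicate 3.

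The sequences were searched on both strands for a fixed set of short motifs, and a match describes letters, not binding. The half-site of the p53 motif, by its usual consensus, matched in 1 of the 16 tiles, the top tile, and in 2.02% of all 445 tiles. The match, GGGCTTGCCT (chr17:29079039-29079048), takes in all 8 bases that neither neighbour of the top tile carries and 2 that the outer neighbour has too, so no other tile holds it whole. No tile of the locus held a pair of such half-sites with a spacer of 0 to 13 bases. Of the 8 tiles elsewhere in the locus with a half-site, 1 was called higher and 4 lower, against 9.74% and 59.9% of all tested tiles. The log2 ratios of those 8 ran from -0.69 to 0.42. The tile at 29078949, also called higher, held no base of the match.

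Most other motifs had no match in the 16 tiles and were rare over the whole locus too. TATAAA, the GC box GGGCGG, the AP-1 motif TGANTCA and the TEAD motif GGAATG matched in none of the 16 tiles and in 4.49%, 3.15%, 3.6% and 4.04% of all tiles. The cyclic AMP response element TGACGTCA matched in no tile of the locus, and the SRF CArG box and the MEF2 motif, searched by name, matched in 0.225% and 0.449% of all tiles and in none here. CCAAT matched in 1 tile, at 29079341, and in 10.6% of all tiles. The E-box CANNTG, bound by myogenic factors among others, matched in 8 of the 16 tiles and in 36.4% of all tiles, and its form CAGCTG, which CANNTG includes, in 2 and in 5.84%. Of the 8 tiles with an E-box, 1 was called higher, the tile at 29079439, and 4 lower, against 9.74% and 59.9% of all tested tiles. None of the 3 tiles of largest excess held an E-box.

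The top tile, the tile at 29079096 and the neighbour without an excess were alike rich in G and C, and the tile at 29078949 was not. The share of G and C was 50.0% in the tile at 29078949, 62.2% in the top tile, 67.8% in the outer neighbour at 29079047, which had no excess, and 70.0% in the tile at 29079096, the highest of all tiles in the locus. The median was 51.7% over the 16 tiles and 50% over the locus. CG pairs numbered 2, 3, 4 and 3 in those tiles in the same order. A count of 3 or more was found in 37.5% of the 16 tiles and in 20.9% of all tiles. The tiles at 29079145, 29079194 and 29079243, none of them called higher, had 58.9%, 57.8% and 58.9% G and C.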

How the data were processed

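Reporter tags were measured in 3 RNA and 3 vector DNA libraries, for which the submitters' processing notes name CASAVA 1.8.2. The values deposited by the authors are the fraction of all tag reads in a library that a tag makes up, per the file headers. The authors also deposited a ratio per tag (median RNA over median vector fraction), which entered no test. No source used here says how tags were counted or how tags came to be listed at 0. Exon positions came from the annotation columns the authors deposited with the organ tables (mm10).

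Fractions were summed over the 5 tags of a tile, and log2(fraction + 1e-05) was fitted with limma 3.58.1 (R 4.3.3), with a mean-variance trend, two-sided, over all 431 tiles above 0 in all 3 vector libraries. Benjamini-Hochberg adjustment ran over all tiles, and calls are at 0.05. The same model was fitted over 1581 tags and over 415 differences between neighbouring tiles. The model takes a common spread for RNA and vector libraries. Between vector libraries the log2 values of tested tags correlated at 0.996, and between RNA libraries at 0.917 to 0.937. Scripts were tested on simulated data. The region, motifs and tests were chosen with earlier results of these data known, though the rule for tiles uses position only. All 16 tiles are named. Tags are named by sequence for tiles called with a log2 of at least 0.5 in size. Tile sequences shown are the called tiles of largest size (up to 3 in each direction), those over the annotated start and the outer neighbour of the top tile. Alternatives changed the pseudocount, filter, scaling, tile summary, moderated trend, replicate block, tags used and libraries used.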

Additional observations from a re-analysis of the deposited data

How the results depend on the processing

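The call of the tile at 29078998 held in all 16 alternatives, with log2 ratios of 2.23 to 2.91, and that of the tile at 29079439 in all 16, with 0.22 to 0.55. The calls of the tiles at 29078949 and 29079096 each held in 15 of 16 and were lost with the median over tags. Over the 16 tiles, 212 of 254 alternative values kept direction and side of the threshold, or were uncalled in both. With the median over tags, 2 of the 16 tiles were higher and 1 lower, and over the locus 23 were higher and 92 lower, against 42 and 258. Tags listed at 0 enter that median. The tiles with 3 such tags (29078802, 29079145, 29079194 and 29079243) therefore had a log2 of 0 whatever their other tags did. With libraries centred, 0 of the 16 tiles and 61 of all tiles were lower, 1 tag here was lower, and the tile at 29079341 turned to 0.23. Without tags 1 mismatch from another listed tag, a setting chosen after seeing the data, 4 of the 16 tiles were lower, and the tiles at 29078900 and 29079292 gave no value. With no filter, 3 tags here were lower. Leaving out single libraries gave 4 to 6 lower tiles, 2 to 15 lower tags and 5 to 9 differing pairs. The cause of these changes was not tested. RNA and vector libraries share only a number. Deviations of same-numbered libraries correlated at -0.01, -0.06 and 0.03 across tiles, and not every library correlated best with its own number. With a replicate block 4 tiles were higher and 8 lower, 9 tags higher and 6 lower, and 7 pairs differed. Scarce tiles and the unstated depth limit the intervals.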

Other observations

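Not every tag was listed above 0. Of the 80 tags, 30% were listed at 0 in all 6 libraries, against 25.3% of all 2225 tags, and 5 of the 16 tiles had fewer than 3 tested tags. Within the 16 tiles, tags listed at 0 throughout had a median of 6 G or C bases of 10, and the others 5, while over the locus both medians were 5.

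Some tags differ by 1 base. Of the 80, 41.2% lay 1 mismatch from another listed tag, against 35.4% of all tags, and 6 pairs of this kind shared a tile. In 2 of the 6 pairs 1 tag was listed at 0 and the other was not: GCCACCGTTG was listed at 0 beside GCCACCGTTC at 123 ppm (tag reads in every 1000000) in vector, and AGGGGCCGTG was listed at 0 beside AGGGGCCGTC at 14.7 ppm. In the top tile ACGATTACAC and ACGATTACAT form such a pair, and the other 3 tags of that tile lie further from every listed tag.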
